A study of Mus musculus with 4 samples.

Results

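The cytosolic ribosomal protein genes encode the protein part of the ribosome of the cytoplasm. They were chosen by symbol (Rpl or Rps with a number, Rplp0 to Rplp2, and Rpsa), with a quantification status of OK and at least 1 FPKM (fragments scaled to transcript length and to the fragments mapped in the library) in 1 or more libraries. Of 39170 rows in the table, 84 matched the symbols, and 81 met both conditions. The other 3, Rpl10l, Rpl39l and Rps12l1, were listed at 0 FPKM in all 4 libraries. The 81 genes comprised 31 of the small (40S) and 50 of the large (60S) subunit, and 5 of them (Rpl3l, Rpl7l1, Rpl22l1, Rpl36al and Rps27l) are paralogs of another member.

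The donors were MIP-GFP C57BL/6 males, 6 to 8 weeks old, whose transgene puts green fluorescent protein under the insulin 1 promoter of the mouse, so that insulin-expressing islet cells can be sorted. The 4 libraries held Glut2-low (Glut2L) cells of streptozotocin (STZ) mice, Glut2L cells of control mice, Glut2-high (Glut2H) cells of STZ mice and Glut2H cells of control mice. STZ, a toxin that enters beta cells through the glucose transporter Glut2, was given intraperitoneally at 200 mg/kg in citrate buffer, with diabetes present at day 4; controls received vehicle. Each treatment had 3 mice, and the labels do not say whether their cells were pooled.

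A ribosome holds most of its proteins in equal numbers, and cells keep their amounts matched. Their mRNAs are short, abundant and mostly of the 5′ TOP class: they begin with a cytosine followed by a run of pyrimidines, through which the mTOR pathway sets their translation. In beta cells, which make large amounts of insulin, much of the messenger RNA is insulin message, and the ribosome supply serves that output. Several ribosomal proteins have roles of their own outside the ribosome, such as binding of the p53 inhibitor Mdm2 by Rpl5 and Rpl11.

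There was 1 library per group, so no difference below has a replicate check or a p-value, and each describes those libraries. The gene of Glut2 itself, Slc2a2, went against the sort labels, with 33.7 and 41.0 FPKM in the libraries labelled Glut2L (STZ and control) and 10.8 and 8.74 FPKM in those labelled Glut2H (STZ and control). Glut2L and Glut2H therefore name libraries by their labels throughout. All 15 beta cell markers were present in every library and summed to 209540 and 338285 FPKM in Glut2L, against 67264 and 71156 FPKM in Glut2H cells. Another row, Gm20594, took 4.15% and 3.86% of all FPKM in the Glut2L libraries and 68.5% and 61.0% in the Glut2H libraries, which bears on any level given as a share.

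The ribosomal protein genes were among the abundant messages of every library. They summed to 31876 FPKM in Glut2L cells of STZ mice, 37657 FPKM in Glut2L cells of control mice, 31944 FPKM in Glut2H cells of STZ mice and 34626 FPKM in Glut2H cells of control mice. The median gene had 240.0 FPKM in Glut2L STZ, 307 in Glut2L control, 259 in Glut2H STZ and 256 in Glut2H control cells. These sums were 2.04% and 2.28% of all FPKM in the Glut2L libraries and 0.932% and 1.18% in the Glut2H libraries. Without the row Gm20594 the order of the gates turned, to 2.13% and 2.37% in Glut2L and 2.96% and 3.02% in Glut2H cells, so the share of these genes in a library depended on that row. Summed FPKM of the 60S genes was 1.25 and 1.39 times that of the 40S genes in Glut2L STZ and control cells, and 1.18 and 1.29 times in Glut2H STZ and control cells.

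Levels differed far more between genes than between libraries, although most of the proteins are needed in equal numbers. Between 7 and 11 genes per library reached 1000 FPKM, 52 to 57 lay between 100 and 1000 FPKM, and 15 to 20 lay under 100 FPKM. The 5 highest genes made up 29.5% and 29.0% of the summed ribosomal protein FPKM in Glut2L and 27.1% and 26.2% in Glut2H cells. Rpl38, a 60S protein known for its part in translation of Hox messages in mouse embryos, had 2024 and 2834 FPKM in Glut2L cells of STZ and control mice, and 1891 and 2685 FPKM in Glut2H cells of STZ and control mice. Rps27, a zinc finger protein of the 40S subunit, had 2591 and 2082 FPKM in Glut2L and 2472 and 1769 FPKM in Glut2H cells of STZ and control mice. Rps27 thus stood first in both STZ libraries and Rpl38 first in both control libraries. Next by mean level came Rpl41 (1838 FPKM), the smallest ribosomal protein, Rplp1 (1538 FPKM) of the stalk and Rps21 (1522 FPKM). At the other end, beside the paralogs Rpl3l and Rpl7l1 given further on, were Rpl24, with 13.2 and 11.8 FPKM in Glut2L and 8.83 and 6.35 FPKM in Glut2H cells, and Rpl29, with 9.11 to 13.5 FPKM. These low values are imprecise. The deposited interval around them had a half-width of 122% to 161% of the value for Rpl24 and 88.4% to 96.2% for Rpl29. The order of genes by level was nearly shared by the libraries: Spearman's rho over the 81 genes was 0.983 between the Glut2L libraries, 0.981 between the Glut2H libraries and 0.958 to 0.961 across gates, over points that share gene length and sequence.

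**Figure D1:**
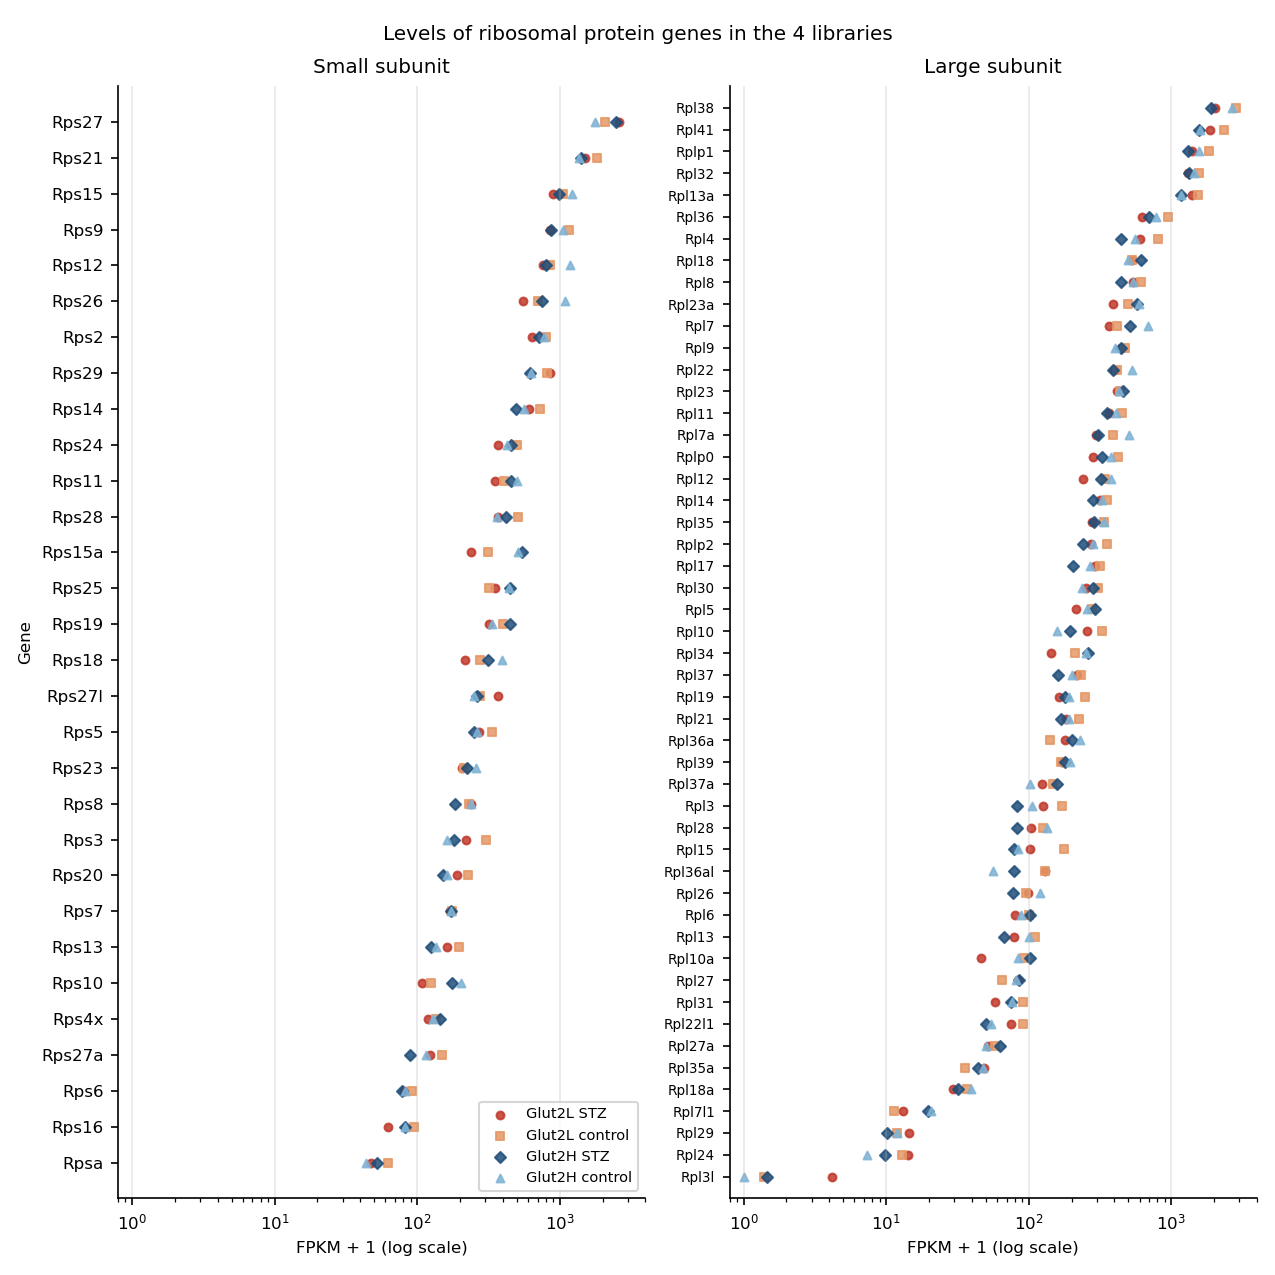
Levels of 80 of the 81 ribosomal protein genes (FPKM + 1, log scale) in the 4 libraries, with 40S genes on the left and 60S genes on the right, ordered by mean level. Each symbol is 1 library; most genes keep their place in all 4, while Rps15a, Rpl10a, Rpl15, Rpl36al and Rpl3l show wider gaps.

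Many of these genes have processed pseudogenes elsewhere in the genome, and reads of a gene and of a near-identical copy may be split by the counting. Of 222 rows with a symbol of an Rpl or Rps gene followed by -ps, 62 reached 1 FPKM. The 222 rows together summed to 387 and 382 FPKM in Glut2L and 345 and 304 FPKM in Glut2H cells. Copies listed under other symbols were not counted, so these sums do not cover all copies. The near copy of Rps27 given further on, listed as Gm9846, alone had more FPKM than these sums in every library. A case that touches a result is Rpl34, with 143.2 and 211 FPKM in Glut2L and 259 and 253 FPKM in Glut2H cells, beside its copy Rpl34-ps1 at 143.2 and 146 FPKM in Glut2L and 145 and 143 FPKM in Glut2H cells. Rpl31 and Rpsa, named below, are further cases. Rpl31-ps21 had 28.7 and 22.9 FPKM in Glut2L and 0 and 1.96 FPKM in Glut2H cells. Rpsa-ps10 had 29.6 to 42.5 FPKM over the libraries. The deposited interval around each value had a median half-width of 62.4% to 63.3% of the value for these genes, against 88.7% to 91.8% for all genes at 1 FPKM or more. For no ribosomal protein gene did the intervals of the compared libraries lie apart, in any of the 4 comparisons. Of all genes measured, 5.13% and 4.71% differed at least 2-fold with intervals apart between Glut2L and Glut2H cells in STZ and control mice, and 0.731% and 1.03% between STZ and control mice in Glut2L and Glut2H cells.

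The letters around the annotated transcript starts were read from RefSeq (GRCm38.p6) for the 61 genes that matched its promoter table, with 73 starts. A cytosine exactly at a start followed by at least 4 pyrimidines occurred in 13 genes (21.3%), against 3.01% of all 27025 genes in the table. A run of at least 8 pyrimidines within 30 bases on either side of a start occurred in 34 genes (55.7%), against 25.8% of all genes. The motif CCGGAAG, which ETS factors are known to bind, was found on either strand within the 300 bases around a start in 24 genes (39.3%), against 9.93% of all genes; its reverse complement holds pyrimidines and can overlap a run. TATAAA on either strand occurred in 7 genes (11.5%), against 15.7%. Below are 60 bases for genes that the results turn on, 30 on either side of the annotated start, with the longest run of pyrimidines in capitals. They are the most abundant pair, Rps6 as a classic TOP message, 3 genes that differed between libraries, and the paralogs Rpl36al and Rps27l with Rpl36a.
Rpl38 (chr11:114668550-114668609, plus strand): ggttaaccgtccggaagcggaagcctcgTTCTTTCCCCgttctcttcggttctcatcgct
Rps27 (chr3:90213619-90213678, minus strand): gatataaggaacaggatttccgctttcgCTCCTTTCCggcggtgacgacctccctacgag
Rps6 (chr4:86857338-86857397, minus strand): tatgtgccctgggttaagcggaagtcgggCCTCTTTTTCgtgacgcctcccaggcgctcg
Rpl15 (chr14:18270957-18271016, minus strand): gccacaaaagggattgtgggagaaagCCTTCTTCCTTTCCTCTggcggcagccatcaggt
Rps15a (chr7:118116118-118116177, minus strand): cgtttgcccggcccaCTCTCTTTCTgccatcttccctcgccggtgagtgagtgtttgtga
Rps10 (chr17:27635215-27635274, minus strand): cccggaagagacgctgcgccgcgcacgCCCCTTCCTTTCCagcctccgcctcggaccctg
Rpl36al (chr12:69184038-69184097, minus strand): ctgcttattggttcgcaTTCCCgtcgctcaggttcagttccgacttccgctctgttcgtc
Rpl36a (chrX:134585624-134585683, plus strand): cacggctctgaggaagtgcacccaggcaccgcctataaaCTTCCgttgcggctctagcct
Rps27l (chr9:66946056-66946115, plus strand): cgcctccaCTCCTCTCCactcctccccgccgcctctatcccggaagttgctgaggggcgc
In Rpl38, Rps27, Rps6, Rpl15 and Rps10 the run spans the annotated start, and in Rps15a it ends before it. Rpl36al and Rpl36a each hold a longest run of 5 in these windows, while that of Rpl15 is 17.

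The first question was how the genes differed between the gates, and they differed little beside other genes. In STZ mice 78 of 81 genes (96.3%) lay within 2-fold between Glut2L and Glut2H cells, against 59.3% of all 15839 genes measured, on the log2(FPKM + 1) scale. In control mice 77 of 80 lay within 2-fold (96.3%), against 61.8% of 16234 genes; Rpl3l was under 1 FPKM in both control libraries. The SD of the log2 differences was 0.42 in STZ and 0.43 in control mice over these genes, against 1.63 and 1.59 over all genes. The mitochondrial ribosomal protein genes, 76 in number, were more spread, with SDs of 0.85 in STZ and in control mice. In STZ mice 1 gene, Rpl3l, was at least 2-fold higher in Glut2L cells (background 22.9%), and Rps15a and Rpl10a were the 2 at least 2-fold lower (background 17.8%). In control mice Rpl36al, Rpl15 and Rpl10 were the 3 higher (background 19.7%) and 0 were lower (background 18.5%). At 1.5-fold the counts were 3 higher and 5 lower in STZ mice (backgrounds 36.6% and 24.9%), and 8 higher and 6 lower in control mice (backgrounds 32.9% and 26.3%). In STZ mice 38 genes lay above 0 (background 58.7%) and 43 below (background 41.3%), and in control mice 56 above (background 55.9%) and 24 below (background 44.1%). The median log2 difference was -0.02 in STZ mice and 0.15 in control mice, where all genes had 0.23 and 0.15. The 40S and 60S genes had medians of -0.07 and 0.01 in STZ mice and of 0.16 and 0.15 in control mice.

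These gate values depend on how the libraries are scaled. Total FPKM includes the row Gm20594, at 68.5% and 61.0% in the Glut2H libraries (STZ and control). Another scaling used equal sums without the highest rows, mitochondrial genes and short loci. With it 96.3% of the ribosomal protein genes lay within 2-fold in STZ and in control mice, against 60.2% and 62.1% of all genes. When each library was set to the same total FPKM, the median of all genes moved to 1.18 in STZ and 0.84 in control mice. There the median of the ribosomal protein genes became 1.11 in STZ and 0.97 in control mice, and 49 of 81 (60.5%, background 57.2%) and 37 of 80 (46.3%, background 43.4%) were at least 2-fold higher in Glut2L cells. Their position against the median of all genes can be moved by a library factor only through the pseudocount. It was -0.26 in STZ mice with FPKM as deposited and -0.07 after that rescaling. In control mice it was 0.003 as deposited and 0.13 after the rescaling. After the rescaling 79 of 81 genes lay above 0 in STZ and 79 of 80 in control mice, so a gene given below as lower in Glut2L cells is lower on the deposited scale. Its rank among the ribosomal protein genes of a library, which no scaling moves, is added for some. The cell types in the libraries also differed by gate. Immune markers were at least 2-fold lower in Glut2L cells for 18 of 19 in STZ and 20 of 20 in control mice, and summed to 173 and 129 FPKM in Glut2L against 4254 and 3930 FPKM in Glut2H cells; of the 21 listed, 2 were at 0 in each Glut2L library, 1 in Glut2H STZ and 0 in Glut2H control cells, with Cd3e at 0 in both Glut2L libraries and Ccl3 in Glut2L control cells. Stromal markers summed to 28.3 and 66.4 FPKM in Glut2L against 829 and 950.5 FPKM in Glut2H cells, with 12 of 12 at least 2-fold lower in each pair and none at 0. Endothelial markers summed to 17.5 and 40.5 FPKM in Glut2L against 299.6 and 349 FPKM in Glut2H cells, with 10 of 10 and 10 of 11 at least 2-fold lower and Tie1 at 0 in Glut2L STZ cells. Acinar markers summed to 440 and 3813 FPKM in Glut2L against 5151 and 4818 FPKM in Glut2H cells, with 17 of 17 at least 2-fold lower in STZ and 1 of 17 in control mice. Prss1 and Amy2a5 were at 0 in all 4 libraries, Prss3 in all but Glut2H control cells and Ptf1a in both Glut2L libraries. Duct and other endocrine markers ran the other way. Duct markers summed to 927 and 1120.3 FPKM in Glut2L against 482 and 545 FPKM in Glut2H cells, and none was at 0. At 2-fold, 7 of 10 duct markers were higher and 1 lower in Glut2L cells of STZ mice, and 5 of 9 higher and 1 lower in control mice. Alpha, delta and PP cell markers summed to 20479 and 13767 FPKM in Glut2L against 9988 and 7927 FPKM in Glut2H cells, with 4 of 10 and 2 of 10 at least 2-fold higher, 1 lower in each pair, and Ghrl at 0 in Glut2H control cells. The part of these markers in the differences of ribosomal protein genes was not tested, and in such bulk samples fewer cells of a type and less RNA per cell cannot be told apart.

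**Figure D2:**
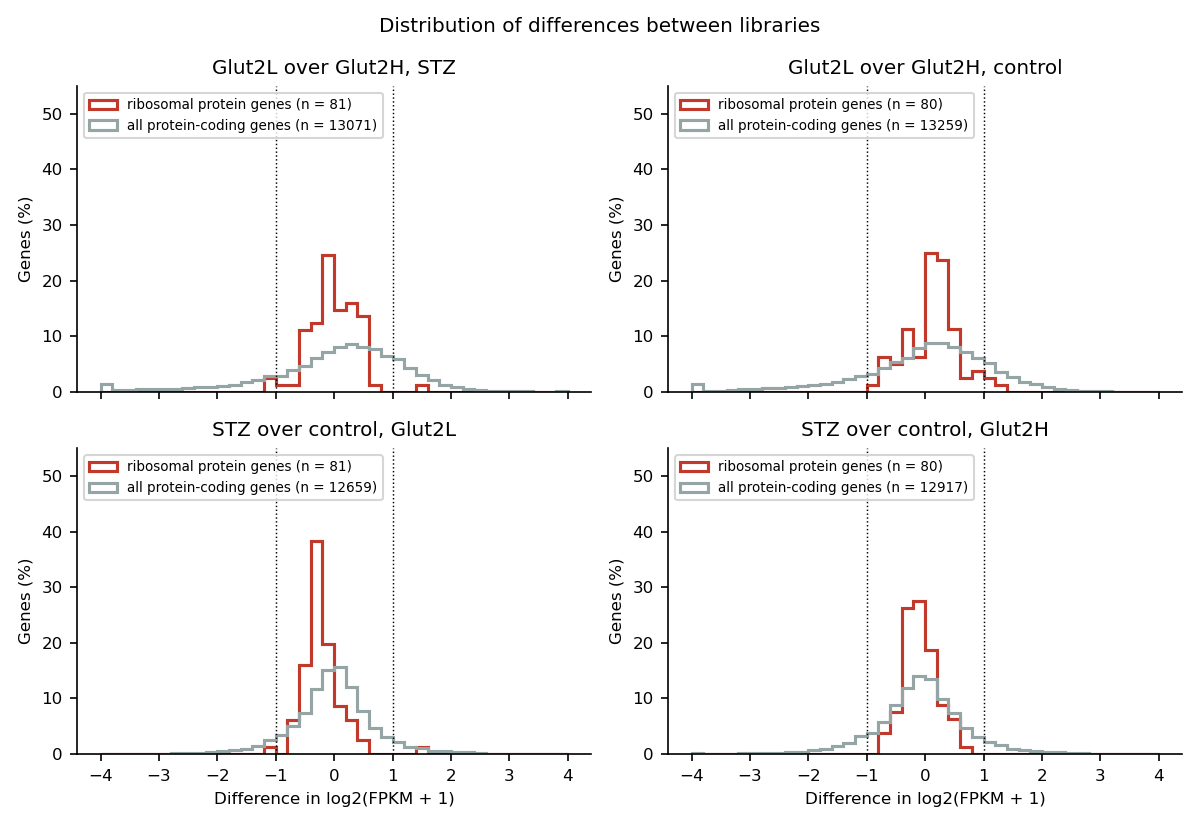
Distribution of log2(FPKM + 1) differences over the ribosomal protein genes (red) and over all protein-coding genes (grey) in the 4 comparisons, in bins of 0.2, as a percentage of each set; values beyond 4 are drawn in the end bins and dotted lines mark 2-fold. The red curves are narrower in all 4, and in Glut2L cells the STZ curve of the ribosomal protein genes sits left of 0, with a median of -0.27.

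Among small subunit genes, Rps15a stood out as low in Glut2L cells. Rps15a, which binds the central domain of the small subunit RNA (GRCm38, chr7:118104372-118116188, minus strand), had 238 FPKM in Glut2L against 546 in Glut2H cells of STZ mice, and 316 against 512 FPKM in control mice. Both Glut2L values lay below both Glut2H values, and the log2 difference was -1.19 in STZ and -0.69 in control mice. It ranked 42 and 39 among the 81 genes in Glut2L cells of STZ and control mice, against 17 and 21 in Glut2H cells. Rps10, at the messenger entry side of the subunit and a target of ubiquitin in ribosome quality control, had 107 FPKM in Glut2L against 174 in Glut2H cells of STZ mice, and 125 against 204 FPKM in control mice (chr17:27630418-27636669, minus strand). Its log2 difference was -0.70 in both pairs, and it ranked 62 and 63 in Glut2L against 52 and 47 in Glut2H cells. Rps18 showed the same order, with 214 against 315 FPKM in STZ and 273 against 393 FPKM in control mice. Rps3, which also acts in DNA repair, had 221 FPKM in Glut2L against 182 in Glut2H cells of STZ mice, and 306 against 162 FPKM in control mice. The order of the gates was the reverse of that of Rps15a, and the gap was wider in control mice, with a log2 difference of 0.28 in STZ and 0.91 in control mice.

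Of the large subunit, Rpl10, Rpl15 and Rpl36al were at least 2-fold higher in Glut2L cells of control mice. Rpl10, which joins the subunit late and in yeast is needed for release of its export factor (chrX:74270812-74273135, plus strand), had 327 FPKM in Glut2L against 157 in Glut2H cells of control mice, and 257 against 193 FPKM in STZ mice. Rpl15, a protein of the subunit core (chr14:18267823-18271391, minus strand), had 175 against 82.8 FPKM in control and 102 against 77.3 FPKM in STZ mice. Both values of each gene in Glut2L cells lay above both in Glut2H cells, although the log2 differences of 1.06 and 1.07 in control mice were 0.41 and 0.40 in STZ mice. Rpl3, at the peptidyl transferase centre, had 124 against 82.0 FPKM in STZ and 171 against 104 FPKM in control mice, at log2 differences of 0.60 and 0.71. Lower in Glut2L cells were Rpl7, at 368 against 517 FPKM in STZ and 418 against 683 FPKM in control mice, and Rpl34, whose values stand beside its pseudogene above. Rpl10a, a protein of the L1 stalk (chr17:28328471-28331033, plus strand), was more than 2-fold lower in STZ mice alone, with 45.1 FPKM in Glut2L against 101 in Glut2H cells, while control mice had 91.3 against 83.3 FPKM. It ranked 76 in Glut2L STZ cells and 61 to 69 in the other libraries. The difference of Rpl10a thus rests on the Glut2L library of STZ mice.

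The gate pairs share no library, so they can be set against each other. Of 80 genes measured in both, 32 had a log2 difference above 0 in both (40%, against 43.3% of all genes), 19 below 0 in both (23.8%, against 27.9%) and 29 had opposite signs. Pearson's r over the 80 genes was 0.58 and Spearman's rho 0.52, beside 0.51 and 0.52 over all genes, as a description of points that share gene length and library preparation. At least 1.5-fold in both pairs were Rpl3 and Rpl36al as higher in Glut2L cells, and Rps15a, Rps10 and Rpl7l1 as lower. That is 2.5% of the 80 genes in the higher and 3.75% in the lower direction, where 19.0% and 15.0% of all genes did so. Without regard to size, 22 of 81 genes (27.2%, background 32.8%) had both Glut2L values above both Glut2H values, and 13 (16.0%, background 21.0%) had both below. On this scale both shares lay below those of all genes. Of protein-coding genes that reach 50 FPKM in a library, 48.7% had both values above and 24.6% both below. With equal sums over all rows 76 (93.8%, against 59.4% of all genes) lay above and 0 below (against 9.89%), so these counts rest on the scaling. With equal sums without the highest rows, mitochondrial genes and short loci, 20 (24.7%, against 31.0%) lay above and 16 (19.8%, against 22.2%) below.

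**Figure D3:**
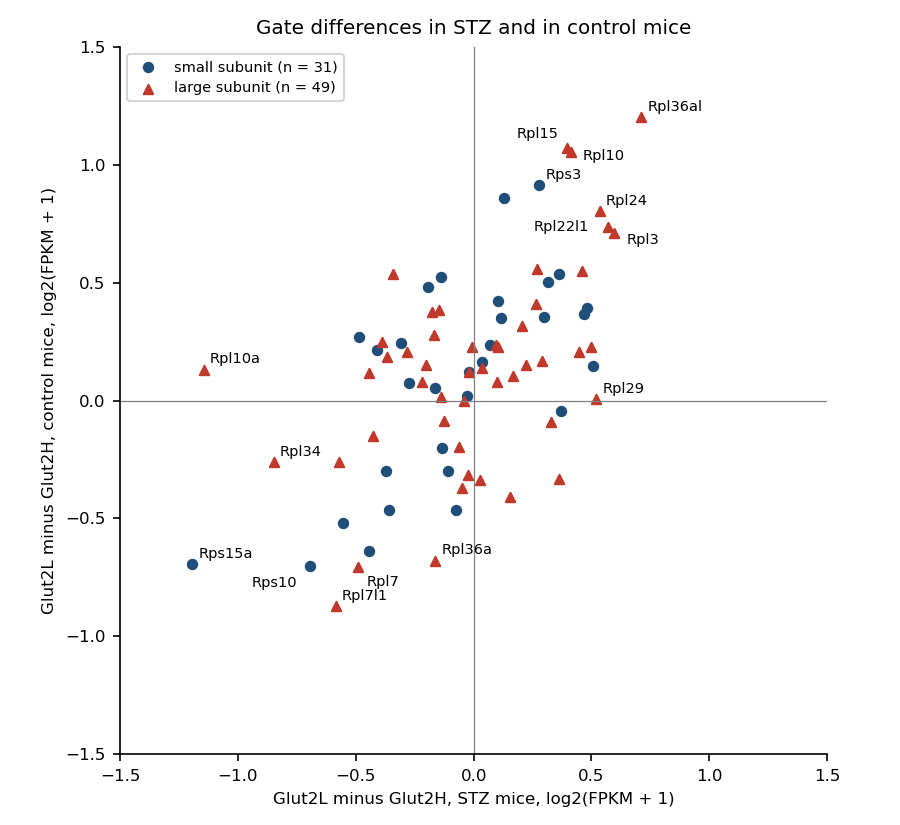
Difference between Glut2L and Glut2H cells (log2(FPKM + 1), values as deposited) of 80 ribosomal protein genes in STZ mice (horizontal) and control mice (vertical), with circles for 40S and triangles for 60S genes; Rpl3l has no control value. Rpl36al lies at the upper right at 0.71 and 1.20 and Rps15a at the lower left at -1.19 and -0.69, while Rpl10a lies low in STZ mice alone.

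Of the 5 paralogs, Rpl36al and Rpl22l1 were higher relative to their counterparts in Glut2L cells. The ratio of a pair within a library is a value that no scaling of a whole library moves. Rpl36al, a retroposed copy of Rpl36a (chr12:69182731-69184083, minus strand), had 129 FPKM in each Glut2L library, against 78.2 and 55.3 FPKM in Glut2H cells of STZ and control mice. Rpl36a, on the X chromosome (chrX:134585654-134588062, plus strand), ran the other way, with 179.7 and 141 FPKM in Glut2L against 201 and 227 FPKM in Glut2H cells. As a share of Rpl36a, Rpl36al therefore came to 71.5% and 91.2% in Glut2L STZ and control cells, against 38.9% and 24.4% in Glut2H STZ and control cells. Their coding sequences are 87.9% identical and share a longest identical stretch of 24 bases, so reads within such stretches cannot be told apart. Rpl22l1, a paralog of the RNA-binding protein Rpl22, had 74.1 and 89.9 FPKM in Glut2L against 49.5 and 53.6 FPKM in Glut2H cells, and its share of Rpl22 was 18.6% and 21.6% in Glut2L against 12.7% and 10.2% in Glut2H cells. In these pairs both ratios in Glut2L cells lay above both in Glut2H cells. Rpl7l1, which in human cells sits in early precursors of the large subunit, had 12.2 and 10.4 FPKM in Glut2L against 18.8 and 19.8 FPKM in Glut2H cells. Relative to Rpl7, itself lower in Glut2L cells, Rpl7l1 came to 3.32% and 2.48% in Glut2L and 3.64% and 2.90% in Glut2H cells, so its ratio was higher in STZ than in control cells of either gate. Rpl3l, a muscle paralog of Rpl3, had 3.20 and 0.402 FPKM in Glut2L cells of STZ and control mice and 0.472 FPKM in Glut2H cells of STZ mice, and was listed at 0 in Glut2H cells of control mice. It was the only member with a library under 1 FPKM, and its log2 differences of 1.51 against Glut2H and 1.58 against control rest on its level in Glut2L cells of STZ mice. The testis paralogs Rpl10l and Rpl39l were listed at 0 throughout.

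**Figure D4:**
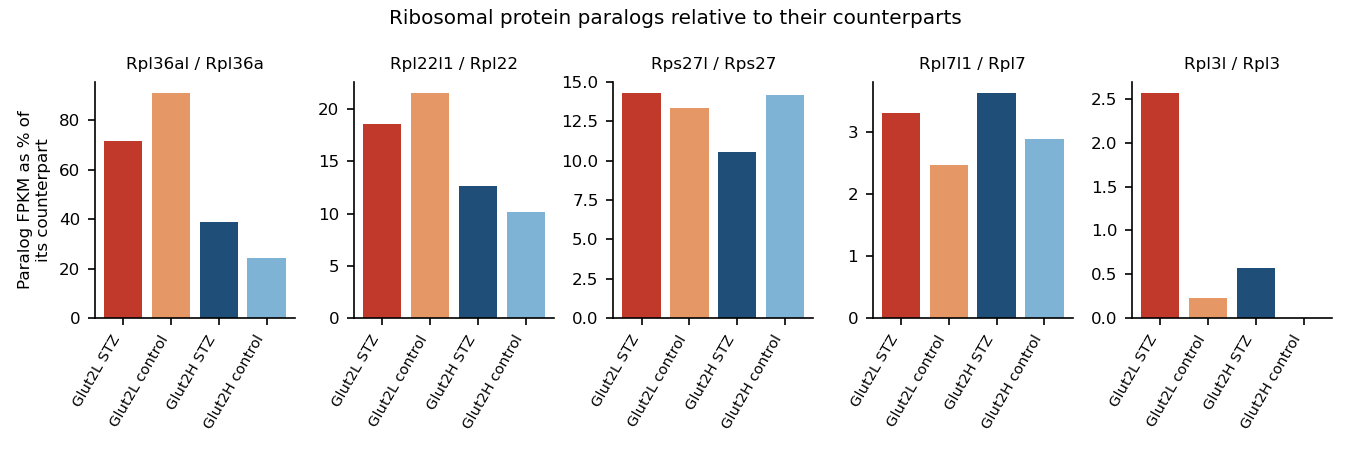
FPKM of each paralog as a percentage of its counterpart in the 4 libraries, 1 bar per library and a scale of its own per panel. Rpl36al and Rpl22l1 are higher in both Glut2L libraries, Rps27l lies between 10.6% and 14.3%, and Rpl3l is near 0 except in Glut2L cells of STZ mice.

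The second question was what STZ did within each gate. In Glut2L cells most ribosomal protein genes were somewhat lower in STZ than in control mice: 66 of 81 (81.5%) had a log2 difference below 0, where 49.7% of all 15602 genes did. Their median was -0.27, against 0.00 over all genes and -0.14 over protein-coding genes that reach 50 FPKM in a library, 64.2% of which lay below 0. The genes moved by small steps, with 79 of 81 within 2-fold (97.5%, background 78.8%), 1 at least 2-fold higher (background 10.2%) and 1 at least 2-fold lower (background 11.1%). Of protein-coding genes that reach 50 FPKM in a library, 88.0% lay within 2-fold in Glut2L cells and 89.7% in Glut2H cells, nearer to these genes than all genes were. In Glut2H cells 52 of 80 (65.0%) lay below 0, against 54.6% of all 15558 genes, with a median of -0.11 against -0.07 over all genes. All 80 were within 2-fold there (background 76.5%), so that 0 were at least 2-fold higher (background 9.62%) and 0 lower (background 13.8%). At 1.5-fold, 7 genes were lower and 1 higher in Glut2L cells (backgrounds 19.5% and 18.4%), and 3 lower and 1 higher in Glut2H cells (backgrounds 23.4% and 17.6%). The medians of 40S and 60S genes were -0.27 and -0.28 in Glut2L and -0.07 and -0.13 in Glut2H cells. Markers of cell types also differed with STZ. In Glut2L cells 16 of 16 measured acinar markers had at least 2-fold lower values, and the list summed to 440 FPKM in STZ against 3813 FPKM in control cells. Prss1, Prss3, Amy2a5 and Ptf1a were at 0 in both of these libraries. Endothelial markers, with the sums given above, were at least 2-fold lower with STZ for 3 of 8 in Glut2L and 3 of 11 in Glut2H cells, at medians of -0.91 and -0.67. Of the alpha, delta and PP cell markers, 9 of 10 lay above 0 with STZ in Glut2L cells (background 50.3%), at a median of 0.18. In Glut2H cells 5 of 9 lay above 0 (background 45.4%) and 4 below (background 54.6%), at a median of 0.08. Glucagon (Gcg), the highest of that list over 5 FPKM in both gates, had 9893 FPKM in STZ against 4170 FPKM in control Glut2L cells. In Glut2H cells Gcg had 4337 against 2287 FPKM, while Ttr and Ppy lay at -0.57 and -0.21. Of 15 beta cell markers 0 reached 2-fold with STZ in either gate, where 78.8% and 76.5% of all genes lay within 2-fold in Glut2L and Glut2H cells. The median of the beta cell markers was -0.03 in Glut2L cells, although their sum was 209540 FPKM in STZ against 338285 FPKM in control cells there. The part of these markers in the ribosomal protein values was not tested.

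The STZ pairs share no library either. Of 80 genes, 44 lay below 0 in both gates (55%, background 27.1%), 6 above 0 in both (7.5%, background 23.4%) and 30 had opposite signs. The sizes were nearly uncorrelated between the gates, with Pearson's r at 0.08 and Spearman's rho at 0.06 over the 80 genes, and 0 genes were 1.5-fold in the same direction in both (backgrounds 3.53% and 5.07%). For 25 of 81 genes (30.9%) both STZ values lay below both control values, against 10.4% of all genes and 8.07% of protein-coding genes that reach 50 FPKM; for 4 (4.94%, background 9.05%) both lay above. These counts move with the scaling: 26 (32.1%, against 11.3% of all genes) lay below and 2 (2.47%, against 8.59%) above with equal sums without the highest rows, mitochondrial genes and short loci. With equal sums over all rows 3 lay below (3.70%, against 7.40%) and 0 above (against 4.27%). That count sets values of both gates against each other, so it cannot show whether a difference within a gate was lost. The scaling multiplied Glut2L values by 1.45 and 1.37 and Glut2H values by 0.659 and 0.769 (STZ and control). Within gates 61 of 81 genes then lay below 0 in Glut2L and 68 of 80 in Glut2H cells, where all genes had medians of 0.08 and -0.25. With equal sums of the canonical ribosomal protein genes, which balance them by construction, 11 lay below (13.6%, against 7.01%) and 11 above (13.6%, against 14.7%). Relative to the median of all genes, a measure that a factor on a whole library can move only through the pseudocount, the median was -0.28 in Glut2L and -0.03 in Glut2H cells.

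**Figure D5:**
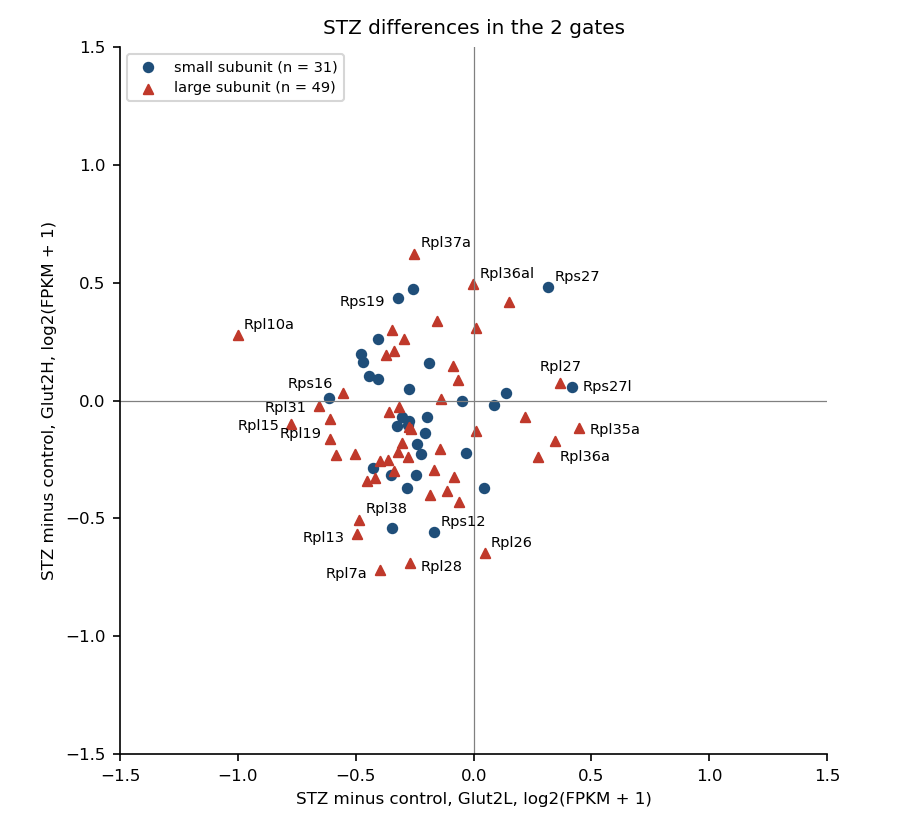
Difference between STZ and control mice (log2(FPKM + 1)) of 80 ribosomal protein genes in Glut2L cells (horizontal) and Glut2H cells (vertical), with circles for 40S and triangles for 60S genes; Rpl3l is left out. Most points, 44 of 80, lie at the lower left, Rps27 lies at the upper right at 0.32 and 0.48, and Rpl10a lies farthest left, just past 2-fold.

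The STZ values of single genes are given by role, and their deposited intervals overlapped throughout. In the stalk of the large subunit, which recruits elongation factors, steps were small. Rplp0, its base, had 281 FPKM in STZ against 422 in control Glut2L cells, and 324 against 380.2 FPKM in Glut2H cells. Rplp1 had 1408 against 1853 FPKM in Glut2L and 1317 against 1573 FPKM in Glut2H cells. Rplp2 had 274 against 353 FPKM in Glut2L and 238 against 284 FPKM in Glut2H cells. Both STZ values of each lay below both control values, at log2 differences of -0.59, -0.40 and -0.36 in Glut2L and -0.23, -0.26 and -0.25 in Glut2H cells, of which only that of Rplp0 in Glut2L cells reached 1.5-fold. Rpl38 was lower by a similar step in both gates, at -0.49 and -0.51. Rpl11, which with Rpl5 and 5S RNA binds Mdm2, had 363 against 454 FPKM in Glut2L and 354 against 412 FPKM in Glut2H cells. Rpl5 did not share that order, with 215 against 278 FPKM in Glut2L and 293 against 256 FPKM in Glut2H cells. Rpl10a had 45.1 FPKM in STZ against 91.3 in control Glut2L cells and 101 against 83.3 FPKM in Glut2H cells, so that it just passed 2-fold in Glut2L cells and lay on the other side in Glut2H cells. Rpl15, Rpl31 and Rpl19 followed at -0.77, -0.66 and -0.61 in Glut2L cells, and at -0.10, -0.02 and -0.08 in Glut2H cells. The lowest values in Glut2H cells belonged to others: Rpl7a had 306 FPKM in STZ against 504 in control cells, Rpl28 had 82.0 against 133 FPKM, and Rpl26 had 76.1 against 119.8 FPKM. Rpl13 followed at -0.56 in Glut2H and -0.49 in Glut2L cells, with deposited intervals far wider than those of the other genes.

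Among 40S genes, Rps6, the substrate of S6 kinase, had 79.4 FPKM in STZ against 91.3 in control Glut2L cells and 77.4 against 81.3 FPKM in Glut2H cells. Rpsa, which also serves as a laminin receptor, had 46.6 against 62.0 FPKM in Glut2L and 51.4 against 42.7 FPKM in Glut2H cells. Rps16 was the lowest in Glut2L cells, at 61.3 against 94.4 FPKM, and near its control in Glut2H cells, at 81.8 against 81.2 FPKM. Rps12, which holds 3 annotated snoRNAs, was the lowest in Glut2H cells, at 805 against 1185 FPKM, with 765 against 859 FPKM in Glut2L cells. Rps19, mutated in human Diamond-Blackfan anemia, had 321 against 401 FPKM in Glut2L and 449.8 against 332 FPKM in Glut2H cells. Rps6 and Rps12 were thus lower in both gates, while Rps19 and Rpsa lay on opposite sides of 0 in the gates.

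Against this general order, Rps27 was higher in STZ mice in both gates, and its paralog Rps27l was higher mainly in Glut2L cells. Rps27 had 2591 FPKM in STZ against 2082 in control Glut2L cells and 2472 against 1769 FPKM in Glut2H cells, so both STZ values lay above both control values. The other genes with that order were Rpl18, Rpl27 and Rpl3l. A near copy of Rps27, Rps27rt (listed as Gm9846), had 1399 against 1191 FPKM in Glut2L and 1049 against 1149 FPKM in Glut2H cells, and reads of these copies may be split. Rps27l, a target of p53 in human cells (chr9:66946086-66949516, plus strand), had 371 FPKM in STZ against 277 in control Glut2L cells and 261 against 251 FPKM in Glut2H cells. Its log2 difference of 0.42 in Glut2L cells was second only to Rpl35a (0.45) among genes over 5 FPKM. Of 19 other p53 targets on a fixed list, 19 lay above 0 in Glut2L cells (background 50.3%) with a median of 0.73, and 6 in Glut2H cells (background 45.4%) with a median of -0.13. Cdkn1a, the cell cycle inhibitor p21, had 68.6 against 37.7 FPKM in Glut2L and 43.8 against 29.9 FPKM in Glut2H cells. Whether Rps27l follows these targets was not tested. Elsewhere on the higher side in Glut2H cells stood Rpl37a, with 156 FPKM in STZ against 101 in control cells, and with 123 against 147 FPKM in Glut2L cells.

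The STZ difference of Glut2L cells minus that of Glut2H cells, which uses all 4 libraries, had a median of -0.14 over 80 genes, against 0.05 over 13427 genes. It lay below 0 for 53 genes (66.3%, background 47.5%). Over protein-coding genes that reach 50 FPKM in a library the median was -0.14 too, and 59.4% lay below 0. Of the ribosomal protein genes only Rpl10a passed 2-fold, at -1.28 (1.25% of the 80 genes in the lower direction, background 12.5%), and 0 were 2-fold higher (background 14.6%). At 1.5-fold 12 were lower (background 22.0%) and 1 higher (background 25.2%). Among the lowest after Rpl10a were Rpl37a at -0.88, Rps19 at -0.76 and Rps28 at -0.68, and highest was Rpl26 at 0.69. With equal sums over all rows the median was 0.17, against 0.30 over all genes, so its sign rests on the scaling.

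Other components of translation gave a background for these values. The 5 listed ribosomal proteins outside the symbol rule, among them Rps3a1, Fau, Gnb2l1 (Rack1) and Rps27rt, had medians of -0.21 with STZ in Glut2L and -0.13 in Glut2H cells. Of these, 0 of 5 reached 2-fold in any comparison, where 59.3% to 78.8% of all genes lay within 2-fold. The widest was Gnb2l1, a signalling scaffold on the 40S subunit, with 221 FPKM in STZ against 422 in control Glut2L cells and 319 against 307 FPKM in Glut2H cells. Elongation factors and other TOP messages (17 genes) had medians of -0.25 with STZ in Glut2L and -0.05 in Glut2H cells, close to those of the ribosomal protein genes, with 14 of 17 (82.4%, background 49.7%) and 10 of 17 (58.8%, background 54.6%) below 0. Of these only Eif3f, a subunit of an initiation factor, fell at least 2-fold with STZ in Glut2L cells (5.88%, background 11.1%), and 0 did in Glut2H cells (background 13.8%). Eif3f had 20.9 against 53.5 FPKM in Glut2L cells, while Glut2H cells had 12.9 against 13.4 FPKM. Initiation factors and 4E-BPs (25 genes) had medians of 0.07 with STZ in Glut2L and 0.08 in Glut2H cells. In Glut2L cells 2 rose (8.00%, background 10.2%) and 0 fell (background 11.1%) at least 2-fold, and in Glut2H cells 1 rose (4.00%, background 9.62%) and 0 fell (background 13.8%). Eif1ax, for start codon scanning, rose in Glut2L cells to 23.7 FPKM in STZ against 8.24 FPKM in control mice, and Eif2b1 to 23.4 against 8.86 FPKM. The gene past 2-fold in Glut2H cells was Eif4ebp3, a 4E-BP, with 5.66 FPKM in STZ mice and listed at 0 in control mice; Glut2L cells had 2.81 against 3.92 FPKM.

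Ribosome biogenesis factors (36 genes) had medians of -0.03 with STZ in Glut2L and -0.18 in Glut2H cells. Of these, 1 rose (2.78%, background 10.2%) and 0 fell (background 11.1%) at least 2-fold with STZ in Glut2L cells, and 3 rose (8.33%, background 9.62%) and 3 fell (8.33%, background 13.8%) in Glut2H cells. Wdr12, of the complex that matures the large subunit RNA, had 39.2 FPKM in STZ against 6.81 in control Glut2L cells and 17.3 against 5.60 FPKM in Glut2H cells. Nat10, an RNA acetyltransferase, fell in Glut2H cells to 10.4 FPKM in STZ against 31.0 FPKM in control mice. Between gates and on the deposited scale, 7 were at least 2-fold lower in Glut2L cells (19.4%, background 17.8%) and 2 higher (5.56%, background 22.9%) in STZ mice, and 6 lower (16.7%, background 18.5%) and 0 higher (background 19.7%) in control mice. The share of lower factors was thus near that of all genes, and the medians were -0.09 and -0.22, against 0.23 and 0.15 over all genes. Nhp2, of the H/ACA snoRNA complex, had 16.1 against 38.6 FPKM in STZ and 15.7 against 55.04 FPKM in control mice. The mTOR and TOP regulators (16 measured) had medians of -0.02 with STZ in Glut2L and 0.06 in Glut2H cells, with 1 rising (6.25%, background 10.2%) and 0 falling (background 11.1%) at least 2-fold in Glut2L cells, and 3 rising (18.8%, background 9.62%) and 1 falling (6.25%, background 13.8%) in Glut2H cells. Mtor, the kinase itself, had 6.77 FPKM in STZ against 6.02 in control Glut2L cells and 14.6 against 3.75 FPKM in Glut2H cells. Rheb, the GTPase that activates it, had 61.9 against 76.1 FPKM in Glut2L and 73.4 against 32.9 FPKM in Glut2H cells. Mlst8, a subunit of its complexes, had 5.76 against 2.05 FPKM in Glut2L and 2.62 against 3.56 FPKM in Glut2H cells. Larp1, which binds TOP messages, had 23.3 against 32.0 FPKM in Glut2L and 19.5 against 39.0 FPKM in Glut2H cells. Between gates, Myc, which fell with STZ in Glut2H cells, had 11.1 FPKM in Glut2L against 20.8 in Glut2H cells of STZ mice and 11.5 against 62.6 FPKM in control mice. Deptor, an inhibitor of mTOR, had 19.7 against 8.17 FPKM in STZ and 18.1 against 7.37 FPKM in control mice.

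Features of the genes themselves were set beside the STZ values, as a description. The 34 genes with a run of at least 8 pyrimidines near a start, as in the Rpl15 and Rps6 letters above, had a median STZ difference of -0.30 in Glut2L and -0.11 in Glut2H cells, and the 27 without one had -0.25 and 0.06. The 24 genes with CCGGAAG had -0.32 and -0.09, and the 37 without it -0.25 and 0.01. Of the 81 genes, 29 hold 56 annotated snoRNAs, which guide modification of ribosomal RNA. Genes with a snoRNA had medians of -0.33 in Glut2L and -0.12 in Glut2H cells with STZ, and the other 52 had -0.25 and -0.08. The genes lie on many chromosomes, with 14 on chromosome 7, 8 on chromosome 17 and 7 each on chromosomes 9 and 11.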

How the data were processed

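RNA was taken up on Norgen columns, depleted of ribosomal RNA (Ribo-Zero Gold) and made into stranded total RNA libraries, per the labels' protocols. Per the submitters' processing notes, TopHat2, SAMtools and Cuffdiff were used on GRCm38 (mm10); neither their versions nor the normalization between libraries was stated there. The deposited tables give FPKM per gene and library, with interval bounds and a status, per the file headers; the tables of the single samples held the same FPKM (0 of 156680 values differed). The number of reads is unknown, so precision is given only by the deposited intervals, whose level is not stated.

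Differences were taken as log2(FPKM + 1), which understates changes of low genes, over genes that reached 1 FPKM in 1 of the compared libraries with status OK in both. A difference of at least 2-fold on that scale was counted. No test was run, since each group had 1 library. The members and the 15 companion lists, 236 symbols in all, were chosen with earlier results of these data known. Named members were the 5 highest and 5 lowest of each comparison with at least 5 FPKM in a library, the 5 highest by mean level, and a set of genes with known roles; of each list the 2 highest and 2 lowest could be named. Rps18, Cdkn1a and the other genes on 1 side in both pairs were named after their values were seen. Positions are from GENCODE M21 on GRCm38, and start sequences from RefSeq; some genes and sequences are not reported here. Alternatives changed the pseudocount (0.1 or 5), filter, threshold, scaling, interval rule or set of genes. The calculation was checked on simulated data with large planted changes and little noise, which does not measure its precision on the real libraries. Python 3.11.15 was used with pandas 2.3.3, numpy 2.4.6, Biopython 1.88 and matplotlib 3.10.9.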

Additional observations from a re-analysis of the deposited data

How the results depend on the processing

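Over the 4 comparisons and the difference of STZ effects, most counts, medians and named values stayed within 1.5-fold of the main value. Some alternatives could not move a named value: the tables of the single samples were identical, and a filter only drops genes. A turned sign of a named value was marked only where its main value had reached 2-fold, so turns of smaller values were not counted. With a pseudocount of 5, 0 genes were at least 2-fold higher in Glut2L than in Glut2H cells of STZ mice, and 0 higher and 0 lower with STZ in Glut2L cells. With a filter of 5 FPKM, or with the 76 canonical genes alone, 0 were higher in both of these comparisons, since Rpl3l left. Without a filter 1 gene was 2-fold higher in the difference of STZ effects. Centring each comparison on the median of all genes left 1 gene higher and 1 lower in Glut2L than in Glut2H cells of control mice. With an equal sum over all rows, the gate counts were 49 higher (60.5%, against 57.2% of all genes) and 0 lower in STZ mice (median 1.11, turned from -0.02) and 37 higher in control mice (46.3%, against 43.4%; median 0.97); 0 genes were 2-fold lower with STZ in Glut2L cells or in the difference, whose median turned to 0.17. Calls over all genes were then 85.4% and 78.3% higher in the gate comparisons of STZ and control mice, against 56.4% and 51.6% as deposited, 67.6% against 54.0% in the difference, and 43.1% and 43.0% in the gate comparisons with the median set to 0. At 1.5-fold, 3 genes were higher and 5 lower between gates in STZ mice, 8 and 6 in control mice, 7 lower with STZ in Glut2L cells, 1 higher and 3 lower in Glut2H cells, and 1 higher and 12 lower in the difference. With intervals required to lie apart, 0 were called in either direction in each comparison. Equal sums of canonical genes, chosen after seeing the data, left 1 higher between gates in control mice and 0 lower with STZ in Glut2L cells, and turned the STZ median of Glut2H cells to 0.013, with 59.4% of all STZ calls in Glut2L cells higher, against 47.9% as deposited; the non-overlap counts under rescaling were also chosen after seeing the data. No paired analysis was possible because each group has 1 library. The unknown depth and normalization, the wide intervals and reads shared with pseudogenes limit every value.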

Other observations

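Ribosomal proteins of the mitochondrion, which are made from separate genes, gave values of their own. Over 76 of them the median log2 difference between Glut2L and Glut2H cells was 0.29 in STZ and 0.20 in control mice, with 10 higher and 7 lower at least 2-fold in STZ mice (backgrounds 22.9% and 17.8%) and 8 higher and 4 lower in control mice (backgrounds 19.7% and 18.5%). With STZ their medians were -0.14 in Glut2L and -0.15 in Glut2H cells, and 1 rose and 6 fell at least 2-fold in Glut2L cells (backgrounds 10.2% and 11.1%).

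The row listed as Rps4y2, whose Ensembl ID belongs to Rps4l, a paralog of Rps4x annotated as a transcribed processed pseudogene, had 70.8 and 69.9 FPKM in Glut2L cells of STZ and control mice, against 26.9 and 29.2 FPKM in Glut2H cells. Rps4x itself had 119 and 135 FPKM in Glut2L and 144 and 129 FPKM in Glut2H cells.

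The genes that host snoRNAs without coding for a ribosomal protein include Gas5, a TOP message that encodes no protein, with 646 and 702 FPKM in Glut2L cells of STZ and control mice and 571 and 506 FPKM in Glut2H cells. All 8 hosts of the list that were measured were below 0 with STZ in Glut2L cells (median -0.18, background 49.7%), and 2 of 8 in Glut2H cells (median 0.21, background 54.6%). None of the 8 reached 2-fold with STZ in either gate, where 78.8% and 76.5% of all genes lay within 2-fold in Glut2L and Glut2H cells.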
